A study of Homo sapiens with 14 samples.

Results

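The genes that govern the committed step of glycolysis were followed in Hep3BTAp73β cells. They were taken by name, as the phosphofructokinase subunits PFKP, PFKL and PFKM, the bifunctional enzymes PFKFB1, PFKFB2, PFKFB3 and PFKFB4, the phosphatase TIGAR and the bisphosphatase FBP1. All 9 were measured, out of 19775 genes, by 17 of the 54613 probe sets tested. Doxycycline at 1 ug/ml switched on TAp73β in the Dox+ cultures, and the Dox− cultures of the same line received none. There were 2 Dox+ and 2 Dox− cultures per time at 12 h and 24 h and 3 of either kind at 48 h, and each of the 14 RNAs had its own Affymetrix U133 Plus 2.0 array. Hep3B is an established hepatocellular carcinoma line. The inducible line was made from colonies kept under blasticidin and G418, with a tetracycline repressor and a TAp73β construct, and Hep3B cells treated with doxycycline without the construct were not analysed here. The labels give DMEM as the medium and the methods give RPMI.

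Phosphofructokinase turns fructose phosphate into fructose bisphosphate and so commits sugar to glycolysis. The working enzyme is an assembly of L (liver), M (muscle) and P (platelet) subunits, which differ in their regulation. The PFKFB enzymes make and break a second fructose bisphosphate, a signalling molecule that activates phosphofructokinase and inhibits FBP1, the enzyme that runs the same step backwards in gluconeogenesis. TIGAR is a phosphatase related to the phosphatase domain of the PFKFB enzymes, and it lowers that signal.

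The promoters of the PFKP gene, of another member that rose and of TIGAR are shown first, because TIGAR, unlike PFKP, did not pass the test at any time. Whether TAp73β acts at these promoters was not tested. RefSeq (GRCh38.p14) held 19 start windows for 8 of the 9 genes, each of 250 bases before and 50 after a start site, among them 4 for PFKP. PFKFB2 was not matched. The hypoxia response core, ACGTG or GCGTG on either strand, stood in 10 windows of 7 genes, beside 48.4% of 35116 promoters of the same length. Windows of neighbouring PFKM starts overlap, and the PFKM windows with a core share the same one. The E-box CACGTG, which contains the core, stood in 1 window, at PFKFB3 (7.26% of all promoters). The bases before the start site are printed in the direction of the gene, with each core in capitals.
PFKP, the third start (chr10:3068939-3069188, plus strand): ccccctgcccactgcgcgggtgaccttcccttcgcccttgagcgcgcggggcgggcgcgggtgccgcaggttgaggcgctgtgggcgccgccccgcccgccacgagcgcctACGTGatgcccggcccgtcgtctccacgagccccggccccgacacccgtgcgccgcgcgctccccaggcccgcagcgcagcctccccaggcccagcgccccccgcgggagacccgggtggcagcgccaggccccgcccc
PFKP, the fourth start (chr10:3104359-3104608, plus strand): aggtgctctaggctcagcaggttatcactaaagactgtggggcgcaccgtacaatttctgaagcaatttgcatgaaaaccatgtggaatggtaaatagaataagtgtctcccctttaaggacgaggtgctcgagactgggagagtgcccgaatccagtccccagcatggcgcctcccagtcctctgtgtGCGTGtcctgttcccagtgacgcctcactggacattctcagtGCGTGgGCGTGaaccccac
PFKFB4 (chr3:48556804-48557053, minus strand): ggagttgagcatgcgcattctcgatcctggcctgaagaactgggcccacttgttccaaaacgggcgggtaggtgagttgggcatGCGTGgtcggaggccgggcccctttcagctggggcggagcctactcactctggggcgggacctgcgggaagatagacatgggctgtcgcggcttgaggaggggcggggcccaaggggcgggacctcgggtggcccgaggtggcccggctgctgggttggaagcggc
TIGAR (chr12:4320963-4321212, plus strand): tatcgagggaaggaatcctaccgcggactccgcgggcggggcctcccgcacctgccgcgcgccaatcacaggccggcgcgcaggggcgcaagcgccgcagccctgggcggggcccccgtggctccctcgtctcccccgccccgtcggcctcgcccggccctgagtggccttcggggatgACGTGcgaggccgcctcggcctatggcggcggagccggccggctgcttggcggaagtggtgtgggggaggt
The windows at the first and second PFKP starts, not printed, hold 0 cores. The window at the third PFKP start holds 1 core, 139 bases before it, and that at the fourth holds 3, at 61, 19 and 13 bases before it. PFKFB4 holds 1 core at 166 bases and TIGAR 1 at 71 bases before the start. Genes that rose and a gene that did not pass the test thus both carried these letters. The arrays do not tell which start was used.

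Values are log2 levels that the authors made by RMA, which corrects background, equalises the arrays and summarises the probes of each probe set. A difference of 1 is a 2-fold change. Levels of different probe sets were not compared, and signal over background was not measured. Where a gene had several probe sets, the brightest on average was its main one. Each time had its own limma comparison of Dox+ and Dox− cultures, with Benjamini-Hochberg adjustment across 19775 genes. The p-values rest on the spread between cultures, where limma draws the spread of each gene towards that of all genes. In bulk RNA fewer cells of a type and less RNA per cell cannot be told apart. The spread between cultures (root mean variance over genes) was largest at 12 h, 0.196 in Dox+ and 0.2089 in Dox−, and smallest at 48 h, 0.1108 and 0.1054. As a check of the labels, the main TP73 probe set ranged from 7.89 to 8.30 on the 7 Dox+ arrays, against 5.82 to 6.08 on the 7 Dox−. Its other probe sets overlapped over all times, at 5.86 to 6.63 against 5.52 to 6.03 and at 4.78 to 5.91 against 4.39 to 5.28. Within each time their Dox+ arrays lay above their Dox− arrays. The liver cell marker ALB was at 14.3 to 14.44 on every array. Other liver cell markers varied more, such as APOA1 at 10.86 to 11.83, AFP at 8.63 to 9.84 and TTR at 7.61 to 8.7. Of the endothelial markers, PECAM1 was at 6.34 to 7.02, VWF at 4.76 to 5.34, KDR at 3.65 to 3.92 and CDH5 at 3.54 to 3.88. Of the leukocyte markers, CD3E was at 5.70 to 6.52 and PTPRC at 3.44 to 3.88. Stellate and fibroblast markers ran from COL1A1 at 7.36 to 7.96 down to LRAT at 3.22 to 3.77.

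At 12 h 1 of the 9 genes was higher in Dox+ cells (0.647% of all genes were), at 24 h 1 (3.01%) and at 48 h 3 (11.3%). PFKP was called at each time, and PFKM and PFKFB4 at 48 h. None of the 9 was lower at 12, 24 or 48 h, where 0.0202%, 2.81% and 12.9% of all genes were. At an unadjusted p under 0.05 PFKL was lower at 12 h and FBP1 at 24 h, and besides the calls PFKFB2 was higher at 12 h and PFKFB3 and PFKFB4 at 24 h. Over all 19775 genes, 2700 at 12 h and 3987 at 24 h had such a p, in either direction. The median difference of the 9 genes was 0.11, 0.14 and 0.11, beside −0.04, 0.02 and −0.02 over all genes. Only PFKP moved by more than 1 on the log2 scale.

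The platelet subunit PFKP rose at all 3 times. At 12 h its level was 8.08 and 8.00 in Dox+ cultures, against 5.98 and 6.06 in Dox−. At 24 h it was 8.14 and 8.06 in Dox+, against 5.77 and 5.98 in Dox−. At 48 h it was 8.22, 8.29 and 8.62 in Dox+, against 5.78, 5.40 and 5.41 in Dox−. Every Dox+ array thus stood far above every Dox− array, with no overlap at any time. The difference was 2.02 at 12 h (SE 0.14, 4.05-fold, adjusted p = 0.00271) and 2.22 at 24 h (SE 0.14, 4.66-fold, adjusted p = 7.86e-05). By 48 h it had reached 2.84 (SE 0.13, adjusted p = 9.00e-07). Ranked by difference among 19775 genes, PFKP was number 15, 25 and 18 at 12, 24 and 48 h. The call at 48 h held under all 14 alternatives, with adjusted p from 2.92e-11 to 0.0043. Leaving out dim genes or choosing another probe set kept the same PFKP probe set and the same 2.84. Its mean of 6.99 passed the dim-gene cutoff of 6.49 through the Dox+ arrays, as all Dox− arrays lay between 5.40 and 6.06. These alternatives were thus not separate checks of its values. At 12 h the call was lost without Dox− replicate 1 (1.98, adjusted p = 0.0544).

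A change of PFKP with time was called in the cells that received no doxycycline, though not under every alternative. In Dox− cells its level fell by 0.49 between 12 h and 48 h (SE 0.14, adjusted p = 0.0186), where 26.5% of all genes changed, and the call was lost with array weights per time point (adjusted p = 0.0874). It was also lost without Dox− 12 h replicate 2 (adjusted p = 0.0911) or without Dox− 48 h replicate 2 or 3 (adjusted p = 0.0679 and 0.0662). In Dox+ cells the same difference was 0.34 (SE 0.14, adjusted p = 0.149). The Dox+ effect was larger at 48 h than at 12 h by 0.83 in 1 fit of all arrays (SE 0.19, adjusted p = 0.0321), and 3.2% of all genes passed that test. With the array weights it did not pass (adjusted p = 0.168), so a difference between 12 h and 48 h was not established. Between 24 h and 48 h the effects differed by 0.62 (SE 0.19, adjusted p = 0.187), and 0 of the 9 genes passed, beside 0.678% of all genes.

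A second probe set of PFKP did not show the rise. It is a dim probe set of the type whose probes can match other transcripts, and lay between 3.83 and 4.22 on all 14 arrays. Its difference was −0.01, 0.22 and −0.02 at 12, 24 and 48 h. In the comparison of every probe set on its own, 1 of the 17 probe sets passed at 12 h (0.143% of all probe sets did), 1 at 24 h (3.84%) and 3 at 48 h (13.8%), each of them the main probe set of its gene. The plot of all 17 probe sets at 48 h shows that 7 of the 8 other probe sets had means under that of the median gene, 6.49.

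The liver subunit PFKL and the muscle subunit PFKM differed far less than PFKP. PFKL was at 7.30 and 7.57 in Dox+ cultures at 12 h, against 7.77 and 8.08 in Dox−. These groups did not overlap and the difference was −0.49 (95% interval −0.90 to −0.08), but it did not pass after adjustment (adjusted p = 0.313). A fit of all 14 arrays, which pools the spread over times, did call it lower (adjusted p = 0.0344). At 24 h PFKL was at 8.00 and 7.93 in Dox+, against 7.71 and 7.95 in Dox−, and at 48 h at 7.84, 7.76 and 7.63, against 7.58, 7.66 and 7.66. The groups overlapped, with differences of 0.14 and 0.11 and a 48 h interval of −0.04 to 0.27. The main PFKL probe set is also of the type that can match other transcripts. The other one gave −0.27, 0.09 and 0.08, and none of these passed.

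PFKM has 1 probe set. At 12 h it was at 6.92 and 7.25 in Dox+ cells, against 6.94 and 7.01 in Dox−. At 24 h it was at 7.21 and 7.34 in Dox+, against 7.12 and 7.13 in Dox−, and at 48 h at 7.57, 7.62 and 7.75, against 7.29, 7.14 and 7.44. The groups overlapped at 12 h and stood apart at 24 h and 48 h. The difference was 0.11 (adjusted p = 0.789), 0.15 (adjusted p = 0.572) and 0.36 (SE 0.09, 1.28-fold, adjusted p = 0.0157), so PFKM rose at 48 h. The call was lost without Dox+ replicate 3 (0.30, adjusted p = 0.0539) or without Dox− replicate 2 (0.28, adjusted p = 0.0527).

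**Figure D1:**
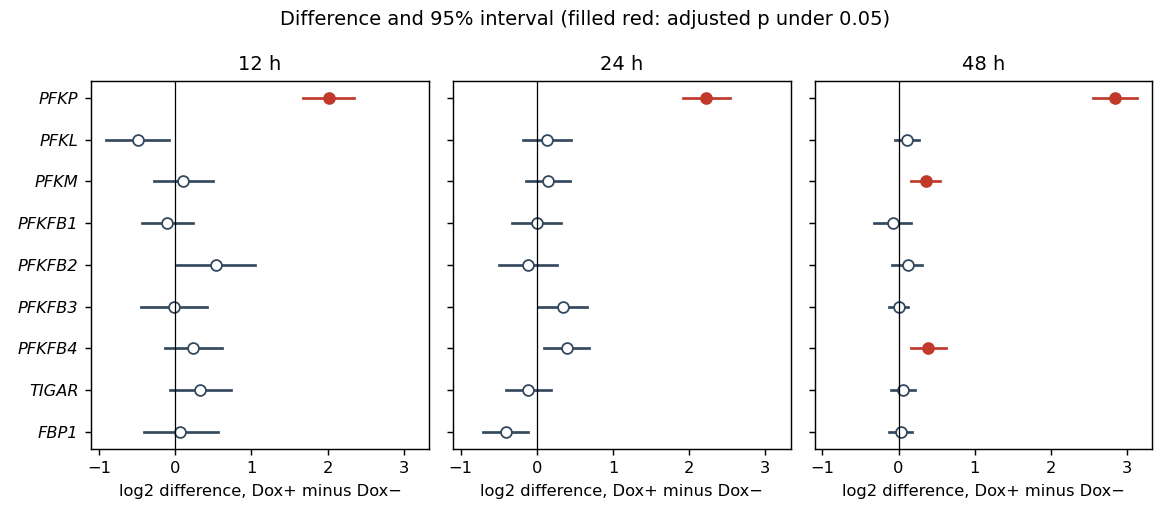
Log2 difference (Dox+ minus Dox−, horizontal axis) of each of the 9 genes, in 1 panel per time, with its 95% interval from limma. Filled red points have an adjusted p under 0.05 over 19775 genes. PFKP passes at each time, with 2.02, 2.22 and 2.84, and the intervals are narrowest at 48 h.

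Among the PFKFB enzymes, PFKFB4 was the one called. Its level was 7.61 and 7.40 in Dox+ cells at 12 h, against 7.16 and 7.37 in Dox−. It was at 7.41 and 7.43 in Dox+ at 24 h, against 7.09 and 6.97 in Dox−. At 48 h it was at 7.60, 7.31 and 7.69 in Dox+, against 7.05, 7.12 and 7.26 in Dox−. All Dox+ arrays lay above all Dox− arrays of their time, though the closest of them nearly met at 12 h and 48 h. The difference was 0.24 (adjusted p = 0.535), 0.39 (adjusted p = 0.12) and 0.39 (SE 0.10, 1.31-fold, adjusted p = 0.0212), so it rose at 48 h. That call was lost without Dox+ replicate 1 (0.35, adjusted p = 0.0722), Dox+ replicate 3 (0.31, adjusted p = 0.0697), Dox− replicate 1 (0.34, adjusted p = 0.0758) or Dox− replicate 2 (0.38, adjusted p = 0.0661). The other PFKFB4 probe set, dim at 4.88 to 5.24, gave −0.21, −0.04 and −0.02.

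PFKFB3, the isoform whose kinase activity far exceeds its phosphatase activity, changed with time, and its doxycycline differences did not pass the test. It was at 8.92 and 9.27 in Dox+ cells at 12 h, against 8.95 and 9.27 in Dox−, and at 9.33 and 9.32 in Dox+ at 24 h, against 9.14 and 8.85 in Dox−. At 48 h it was at 8.58, 8.54 and 8.57 in Dox+, against 8.53, 8.60 and 8.56 in Dox−. All 6 arrays at 48 h were thus below all 8 earlier arrays, whichever the treatment. The doxycycline difference was −0.01, 0.34 (adjusted p = 0.229) and 0.00 at 48 h, where its 95% interval was −0.12 to 0.13. Between 12 h and 48 h PFKFB3 fell by 0.53 in Dox+ cells (SE 0.12, adjusted p = 0.0138) and fell by 0.55 in Dox− cells (SE 0.12, adjusted p = 0.00711). These calls were lost without Dox+ 12 h replicate 2 (−0.35, adjusted p = 0.133) and without Dox− 12 h replicate 2 (−0.39, adjusted p = 0.0737). Whether arrays of a time were processed together is not given in the sources used here, so time and such a batch cannot be told apart.

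PFKFB2, known as the heart isoform, was at 7.75 and 8.20 in Dox+ cells at 12 h, against 7.19 and 7.69 in Dox−. It was at 7.68 and 7.71 in Dox+ at 24 h, against 8.04 and 7.58 in Dox−, and at 8.18, 8.39 and 8.48 in Dox+ at 48 h, against 8.22, 8.15 and 8.34 in Dox−. The differences of 0.54 (adjusted p = 0.355), −0.12 and 0.12 did not pass. In Dox− cells PFKFB2 was higher at 48 h than at 12 h by 0.80 (SE 0.17, adjusted p = 0.0055), and this held under all 17 alternatives. In Dox+ cells the same difference was 0.38 (adjusted p = 0.193). The Dox+ effect on PFKFB2 at 48 h minus that at 12 h was −0.42 (SE 0.24, adjusted p = 0.34), which did not pass. Its 3 other probe sets lay between 3.64 and 6.48, and none of their differences passed. PFKFB1, the liver and muscle isoform, gave dim signals, with its 3 probe sets between 3.31 and 5.26 on all arrays. Its main probe set is the single one among the 9 genes with a mean under that of the median gene, and its differences were −0.10, 0.00 and −0.07.

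TIGAR did not pass the test at any time. At 12 h it was at 9.79 and 9.67 in Dox+ cells, against 9.59 and 9.20 in Dox−. At 24 h it was at 9.64 and 9.57 in Dox+, against 9.79 and 9.64 in Dox−, and at 48 h at 9.56, 9.59 and 9.71, against 9.54, 9.65 and 9.48. The 14 arrays stayed between 9.20 and 9.79, and at 48 h the groups overlapped. The difference was 0.33 (adjusted p = 0.446), −0.11 (adjusted p = 0.694) and 0.06 (adjusted p = 0.606). The 95% interval at 48 h ran from −0.10 to 0.22, which leaves out a change of the size of PFKP.

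FBP1, the gluconeogenic enzyme that opposes phosphofructokinase, was at 7.11 and 6.95 in Dox+ cells at 12 h, against 7.24 and 6.67 in Dox−. At 24 h it was at 6.93 and 7.06 in Dox+, against 7.37 and 7.43 in Dox−. At 48 h it was at 7.45, 7.45 and 7.31 in Dox+, against 7.33, 7.36 and 7.43 in Dox−. The groups were apart at 24 h, where Dox+ was the lower, and overlapped at the other times. The differences were 0.07, −0.41 (95% interval −0.70 to −0.11, adjusted p = 0.113) and 0.03, and none passed. In Dox− cells FBP1 was higher at 48 h than at 12 h by 0.42 (adjusted p = 0.033), a call that was lost without Dox− 12 h replicate 2 (0.13, adjusted p = 0.445) or Dox− 48 h replicate 1, 2 or 3 (adjusted p = 0.0598, 0.0732 and 0.0899), with quantile normalization (0.31, adjusted p = 0.153) and with array weights (adjusted p = 0.0505).

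With time, 2 of the 9 genes changed between 12 h and 48 h in Dox+ cells, PFKFB3 and PFKM, where 9.22% of all genes did. PFKM was higher at 48 h by 0.56 (SE 0.12, adjusted p = 0.00697), and without Dox+ 12 h replicate 1 by 0.39 (adjusted p = 0.104). In Dox− cells 4 of the 9 changed, PFKP, PFKFB2, PFKFB3 and FBP1, where 26.5% of all genes did, and 2 of the 9 with array weights. The corresponding PFKM difference in Dox− cells was 0.32 (adjusted p = 0.057). The Dox+ effect on PFKM at 48 h minus that at 12 h was 0.24 (SE 0.16, adjusted p = 0.425), which did not pass.

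The rest of glucose metabolism was read from lists of named genes, and every gene of these lists called at 48 h moved by less than 1 on the log2 scale. At 12 h none of the measured genes of the lists passed. Of the genes for glucose uptake and phosphorylation, 2 were higher and 4 lower of 9 measured at 48 h. The transporter SLC2A1, which brings glucose into most cells, averaged 7.94 ± 0.29 in Dox+ and 7.21 ± 0.12 in Dox− (SD, n = 3 each), a difference of 0.74 (adjusted p = 0.00324). It was also higher at 24 h, by 0.72 (adjusted p = 0.014), a call lost under 2 of 13 alternatives, 1 of them without Dox− replicate 2. The hexokinase HK1 rose by 0.49. The hepatocyte transporter SLC2A2 fell by 0.64, and GCKR, which holds glucokinase in the nucleus, fell by 0.47. HK1, SLC2A2 and GCKR gave dim signals, with means of 5.53, 4.84 and 5.88, under that of the median gene, 6.49. The HK1 and GCKR calls were each lost under 1 of 13 alternatives (adjusted p up to 0.0569 and 0.111). The SLC2A1 call at 48 h was lost under 1 of 14 (adjusted p up to 0.072). The other SLC2A1 probe set gave 0.14 and did not pass.

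Below phosphofructokinase, 1 gene was higher and 3 were lower of 13 measured. The enolase ENO2, known from neurons, averaged 7.46 ± 0.19 in Dox+ and 6.58 ± 0.21 in Dox− (SD, n = 3 each), a difference of 0.88 (adjusted p = 0.000809). The other enolases went the other way, since ENO3 fell by 0.50 and ENO1 fell by 0.39. Lactate dehydrogenase LDHA fell by 0.31. The 3 other ENO1 probe sets ranged from −0.41 to 0.08, with 1 of them called. The median of this list was −0.06, beside −0.02 over all genes.

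In gluconeogenesis 1 gene was higher and 1 lower of 8 measured. The glucose phosphatase G6PC3 was higher by 0.31 (adjusted p = 0.00356), a call lost under 2 of 14 alternatives (adjusted p up to 0.148). For G6PC3 the other probe set gave 0.16 and did not pass. Its difference at 24 h was 0.54 (adjusted p = 0.0389), a call lost under 7 of 13 alternatives, with 0.05 for the other probe set (adjusted p = 0.908). Pyruvate carboxylase PC fell by 0.28 (adjusted p = 0.0206), a call lost under 5 of 14 alternatives (adjusted p up to 0.0827). In the pentose phosphate pathway, the branch that leaves glycolysis above phosphofructokinase, 2 were higher and 2 lower of 7 measured. PGLS and transketolase TKT were higher by 0.32 each, whereas RPIA fell by 0.46 and TALDO1 fell by 0.20. The TALDO1 call was lost under 7 of 14 alternatives (adjusted p up to 0.239), and the TKT call under 1 of 14 (adjusted p up to 0.0641). Among 5 relatives of the TIGAR phosphatase, the mitochondrial phosphatase PGAM5 fell by 0.38, and its other probe set gave −0.09 and did not pass. UBASH3B was higher by 0.30, but that call was lost under 10 of 14 alternatives (adjusted p up to 0.745), and none of its 4 other probe sets passed.

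**Figure D2:**
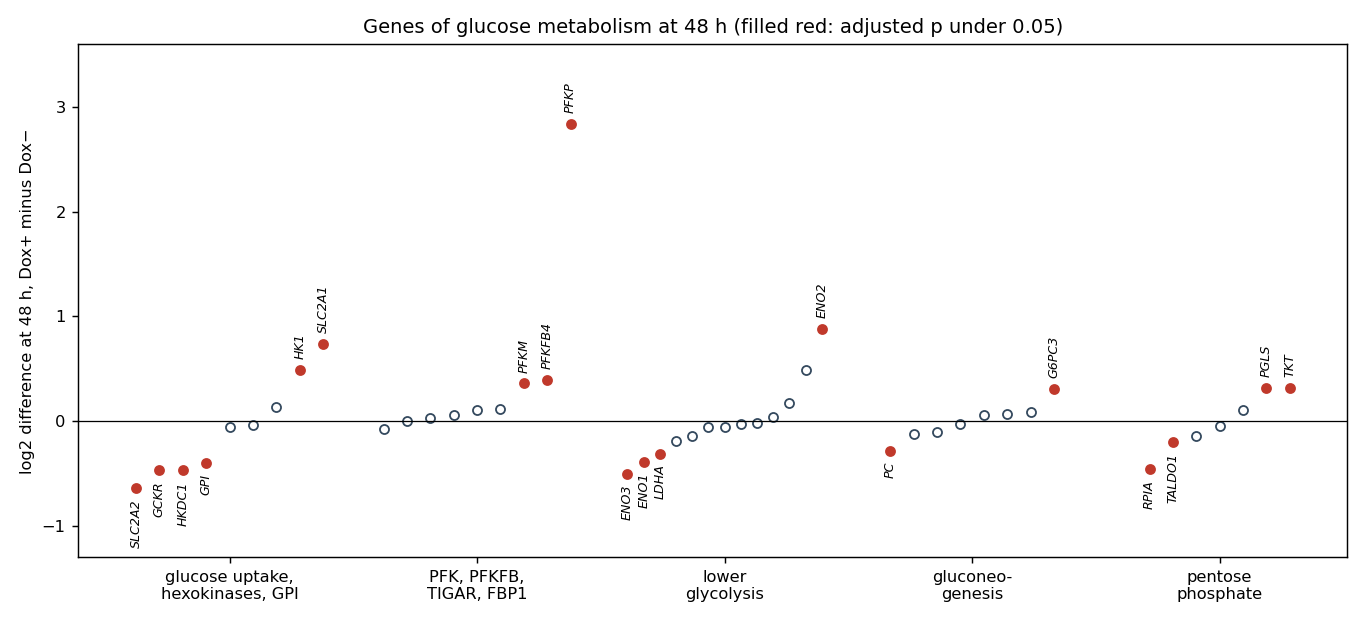
Log2 difference at 48 h (Dox+ minus Dox−, vertical axis) of the measured genes of glucose metabolism, by list along the horizontal axis. Each point is the main probe set of a gene, and filled red points with names have an adjusted p under 0.05. PFKP at 2.84 is the largest difference on the plot, followed by ENO2 at 0.88 and SLC2A1 at 0.74, and each list but that of the 9 genes holds calls in both directions.

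Known regulators of these enzymes had 2 higher and 4 lower of 14 measured at 48 h. PRKAA2, a catalytic subunit of the energy sensor AMPK that activates PFKFB enzymes, fell by 0.98 (adjusted p = 2.95e-05), and its 4 other probe sets were called too. MYC, a transcription factor that drives glycolytic genes, fell by 0.76. Both were also lower at 24 h, with differences of −1.17 and −0.98. FOXO1, known for switching on gluconeogenic genes, rose by 0.75, and the hypoxia factor EPAS1 averaged 12.86 ± 0.05 in Dox+ and 12.12 ± 0.03 in Dox− (SD, n = 3 each), higher by 0.74. Of 2 other probe sets of FOXO1 and 2 of EPAS1, 1 each passed.

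Liver cell markers moved in the same cells, with 1 of 8 higher and 5 lower at 48 h, beside 11.3% and 12.9% of all genes. SERPINA1 was higher by 0.54, APOA1 fell the most, by 0.86, and ALB and APOB did not pass. Of 4 endothelial and 2 measured leukocyte markers 0 passed, and of 5 stellate and fibroblast markers 1 did, ACTA2, higher by 0.97. Their part in the results above was not tested.

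The genes whose levels ran most like those of the called members were found by Pearson's r over the 14 arrays. These arrays fall into Dox+ and Dox− groups and 3 times, which all genes share. For PFKP they were CDKN1A (r = 0.993), which encodes the cell cycle inhibitor p21, MICALL2 (r = 0.985) and the hyaluronan synthase HAS3 (r = 0.984). CDKN1A differed by 2.26, 2.37 and 2.77 at 12, 24 and 48 h, and HAS3 by 2.23, 2.40 and 3.55. For PFKFB4 they were CBFA2T2 (r = 0.936), HINT2 (r = 0.894) and CXCR2 (r = 0.872), and for PFKM BCAP31 (r = 0.956), PTPRS (r = 0.948) and WDR13 (r = 0.944).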

How the data were processed

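Gene expression was measured on 14 arrays of Hep3BTAp73β cells, and the deposited log2 values were made by the authors with RMA; the submitters' processing notes give R 3.5.1. All 14 arrays were used as deposited, with no further normalization or filter, and array medians ran from 5.15 to 5.28. After 62 control probe sets were left out, probe sets were named through the platform annotation, with symbols updated through the Entrez identifier for 41037 of 41091 probe sets that name 1 gene. Dox+ and Dox− were compared at each time with limma 3.58.1 (lmFit and eBayes, two-sided) in R 4.3.3, and p-values were adjusted by Benjamini-Hochberg across 19775 genes (threshold 0.05). Differences between times came from contrasts in 1 fit of all arrays, and a gene's effect was taken to differ between times only where it also passed with array weights per time point. The fits were tested on simulated data. Motifs were searched in RefSeq promoters in Python 3.11.15.

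The members and gene lists were chosen with earlier results of these data known. All 9 genes were named, with up to 4 genes a list of largest rounded difference past the test at 48 h. The 3 genes most like each called member were named too. In the glucose uptake list HKDC1 tied with GCKR at −0.47 after rounding and was left out. The alternatives were a fit of all arrays, dim genes left out, another choice of probe set, quantile normalization, and trend and robust moderation. Student's t-test, a block for the replicate number and each array left out were the others. The paper lists that t-test among its general statistics and names a class comparison for the arrays. The number of arrays limits the precision. Results on 1 item withheld from this text are not reported here.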

Additional observations from a re-analysis of the deposited data

Results flagged for a closer look

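TIGAR was flagged by a rule, because its arrays stood apart in opposite directions at the first pair of times. At 12 h both Dox+ arrays lay above both Dox− arrays, with a difference of 0.33, and at 24 h both lay below them, with −0.11, where the closest arrays meet at 9.64 after rounding. Neither TIGAR difference passed the test, and the difference between these times was not tested. A dimmer probe set of PFKFB2 did the same, with 0.66 and −0.43, and neither passed. How many of all genes do so was not counted, so the pattern is not shown to be particular to TIGAR.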

How the results depend on the processing

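No call changed direction under any alternative. With Student's t-test, after Benjamini-Hochberg adjustment, 0 of the 9 genes were higher at 12 h, 0 at 24 h and 1 at 48 h (PFKP). A fit of all 14 arrays called 1 lower at 12 h (PFKL). With 1 array left out, the count of genes higher ran from 0 to 1 at 12 h and from 1 to 3 at 48 h, where PFKP was always among them. The count with a different effect at 48 h and 12 h was 1, and 0 with array weights or quantile normalization, and ran from 0 to 2 with 1 array left out. The counts changed between 48 h and 12 h, in comparisons added after seeing the data, ran from 1 to 3 in Dox+ cells and from 1 to 6 in Dox− cells with 1 array left out, and the count in Dox− cells was 2 with array weights. The replicate numbers did not pair the arrays. The correlation of same-numbered deviations was 0.255 at 12 h, −0.11 at 24 h and 0.089 to 0.109 at 48 h, where every array correlated best with its own number, a hint from the data and not the design. With the replicate block 1, 1 and 3 genes were higher at 12, 24 and 48 h, as without it, and over all genes 385 were higher and 84 lower at 12 h, against 128 and 4 without it. Crossing the numbers at 24 h, also added after seeing the data, gave 778 genes higher and 815 lower, against 596 and 556. With the t-test 0 genes passed at 12 h (1942 at an unadjusted p under 0.05) and 0 at 24 h (2749), where limma called the counts above. Dim signals limit PFKFB1 and, among the named genes of glucose metabolism, HK1, SLC2A2 and GCKR, and background was not measured.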
